A study of Homo sapiens with 20 samples.

Results

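Chromosome 7 carries a cluster of 4 genes for class 3 semaphorins, SEMA3C, SEMA3E, SEMA3A and SEMA3D, which lie in this order on the minus strand between 80 and 85 Mb of hg19. Their chromatin loops were taken from Hi-C lists of 4 human glioblastoma multiforme (GBM) cell lines. A loop here is a pair of 5 kb anchors with a deposited loop strength, and it was included when either anchor overlapped chr7:80000000-85000000. The window held 5210 of the 572000 different anchor pairs in the 4 lists joined. It held 4398 of 300000 pairs in H4 and 2779 of 300000 in H4 88-1, beside 1406 of 300000 in 42MGBA and 1916 of 300000 in 42MGBA 53-1. H4 and 42MGBA carry an endogenous mutation of STAG2, a subunit of the cohesin complex that extrudes chromatin loops. Gene editing restored STAG2 in a derivative of each, H4 88-1 from H4 and 42MGBA 53-1 from 42MGBA, so that each genotype is compared through 1 derivative per parental line. The labels give the same culture medium for all 4 lines and no treatment. Each list pools 2 Hi-C replicates, so there is no replicate check, no error can be given, and every difference below describes these 4 lists. The window was chosen because of its loop strengths in these lists, which are therefore given as a description with no test.

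Class 3 semaphorins are secreted ligands. They bind neuropilins, which hold the ligand, and plexins, which pass the signal to the cytoskeleton, and they are known for steering axons, migrating neural crest cells and growing blood vessels. Cohesin loops often end where the DNA-binding protein CTCF sits on motifs that point toward each other, so the sequence at an anchor is part of the description of a loop.

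The CTCF core motif CCANNAGNNGGC, with its N limited in turn to C or G, C or T, A or G and G or T, was searched on both strands of all anchors in hg19, and no other motif was searched. It was present in 18 of 627 anchors of the window's pairs (2.87%), in 267 of 8119 anchors of chromosome 7 (3.29%) and in 5048 of 128561 anchors of the genome (3.93%). The following sites lie in or next to the anchors on which the results below turn. They are printed 5′ to 3′ along the strand of the match, and have the motif in capitals. The first 2 share the anchor past the end of SEMA3A, the next is in the SEMA3D anchor it pairs with, and then come the SEMA3D start, its partner, the anchor past the end of SEMA3C and the anchor within SEMA3E.
Past the SEMA3A end, between genes, chr7:83563636-83563665, plus strand: taatatttaCCACTAGAGGGCatttttctt
Past the SEMA3A end, between genes, chr7:83565557-83565586, plus strand: tgttgttaaCCAGCAGATGGCactcttgct
SEMA3D inner anchor, intron of SEMA3D, chr7:84652573-84652602, minus strand: ttactcttaCCACCAGGGGGCaggtcatgc
SEMA3D start anchor, exon of SEMA3D, chr7:84671100-84671129, plus strand: ctgtacttgCCAGCAGAGGGCacccgtgga
Partner of the SEMA3D start, between genes, chr7:85183765-85183794, minus strand: acacagttaCCAGCAGGTGGCagtatgtat
Past the SEMA3C end, between genes, chr7:80328529-80328558, plus strand: gtgaaaattCCACTAGATGGCagatgaaat
SEMA3E inner anchor, intron of SEMA3E, chr7:83040482-83040511, plus strand: tccttggagCCACTAGGTGGCagccctatg
The match past the SEMA3A end points toward the match in SEMA3D, and the match at the SEMA3D start points toward that in its partner. Of the 25 pairs of the window with matches of a single orientation at each anchor, 12 pointed toward each other (48%), against 1083 of 1874 (57.8%) over all lists. A match is a description of the letters and not of CTCF binding, which was not analysed here.

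The pairs of the window were listed mainly in the H4 lines. Over the window, 3005 pairs were listed in an H4 line and in no 42MGBA line, 610 in a 42MGBA line and in no H4 line, and 816 in all 4 lines. These patterns were not counted over the whole genome, so it is not known how far the window departs from it. Chromosome 7 as a whole filled 11.2% of the list of H4, 8.80% of that of H4 88-1, 6.66% of that of 42MGBA and 7.02% of that of 42MGBA 53-1. The weakest listed pair had 4.14 in H4 and 4.44 in H4 88-1, and 4.49 in 42MGBA and 4.28 in 42MGBA 53-1. A pair that is not listed lay below that strength, and its absence is no statement that the contact was lacking. The median size of the window's pairs, between anchor midpoints, came to 549 kb in H4 and 534 kb in H4 88-1, against 481 kb in 42MGBA and 480 kb in 42MGBA 53-1. In the same order of lines the medians were 562, 507, 391 and 330 kb on chromosome 7. Over the whole lists they were 348, 312, 307 and 257 kb, so larger sizes in H4 are not particular to the window.

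To compare each STAG2-corrected line with its parental line, the 100000 strongest pairs of both lines of a system were merged over the genome. The strength in the corrected line was then regressed on that in the mutant line through the origin. A pair was called when the z-score of its residual passed 1.96 in either direction, which ranks pairs and is no test against replicates. In the H4 system, 258 of the 2123 merged pairs of the window were called higher in H4 (12.2%), against a background of 2.17% of all merged pairs. Another 11 were called higher in H4 88-1 (0.518%, background 1.94%). In the 42MGBA system the window went the other way. There, 135 of 967 merged pairs were called higher in 42MGBA 53-1 (14.0%, background 1.61%) and 5 higher in 42MGBA (0.517%, background 2.45%). The median log2 ratio of corrected to mutant strength was -0.29 in the window and 0.074 over the genome in the H4 system, and 0.27 and -0.11 in the 42MGBA system. Absent pairs were set to the lowest listed strength, which was done for 198 pairs in H4 88-1 and 2 in H4, and for 101 pairs in 42MGBA and 47 in 42MGBA 53-1. The rest of chromosome 7 had a median log2 ratio of -0.081 in each system.

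**Figure D1:**
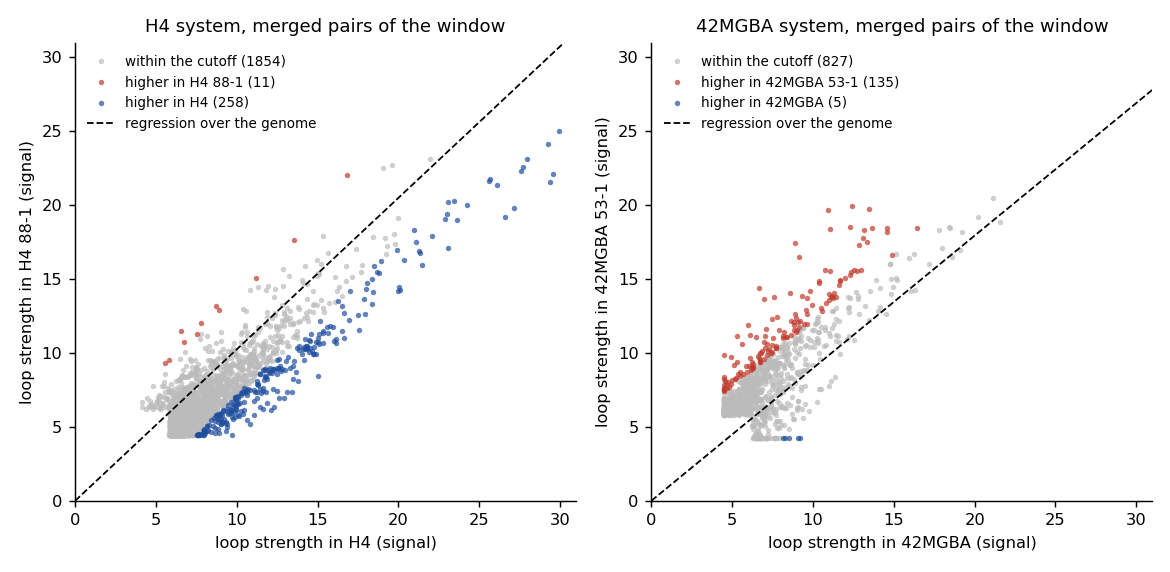
Loop strength (deposited signal) of the merged pairs of the window in the STAG2-mutant line (x axis) and in the STAG2-corrected line (y axis), 1 point per pair, with the genome-wide regression through the origin dashed. The 258 blue points of the H4 system lie below the line and the 135 red points of the 42MGBA system lie above it.

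The size of these counts depended on the scale. When log2 ratios were centred on the median of chromosome 7, 33 pairs were called higher in H4 (background 0.337%) and 12 higher in H4 88-1 (background 9.42%), and 43 higher in 42MGBA 53-1 (background 0.848%) and 14 higher in 42MGBA (background 3.42%). An intercept in the regression gave 123 higher in H4 (background 1.35%) and 21 higher in H4 88-1 (background 2.88%). Log2 ratios without that centring gave 66 higher in 42MGBA 53-1 (background 1.51%) and 12 higher in 42MGBA (background 2.25%). Among the called pairs, those nearest the cutoff had z-scores of 1.98 and -1.96004 in the H4 system and 1.96 and -2.02 in the 42MGBA system, and the nearest pairs outside it had 1.81, -1.95943, 1.95 and -1.90. Neighbouring anchor pairs are not separate observations. Grouped by pairs whose anchors lie within 50 kb of a summit of strength 10 or more, the window held 22 groups with 3488 of its 5210 pairs (66.9%). A group can take in a further summit, so this is no count of loops. These groups held 244 of the 258 pairs called higher in H4 and 132 of the 135 called higher in 42MGBA 53-1.

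The 4 genes differed in how many pairs reached their start sites, counted where an anchor lay within 3 kb of a GENCODE transcript start. SEMA3D had 287 pairs in H4 and 222 in H4 88-1, beside 127 in 42MGBA and 67 in 42MGBA 53-1. SEMA3C had 145 in H4, 74 in H4 88-1 and 0 in either 42MGBA line. SEMA3A had 25, 18, 4 and 18 in the same order of lines, and SEMA3E had 15 in H4, 24 in H4 88-1 and none in either 42MGBA line. SEMA3D had the most pairs in each list when all transcript starts were counted, and this order turned with coding starts only. There SEMA3C had 112 in H4 and 54 in H4 88-1, while SEMA3D had 33 and 29. In the 42MGBA lines SEMA3D then had 26 in 42MGBA and 15 in 42MGBA 53-1, and SEMA3A had 4 and 15. The fewest SEMA3D pairs were in 42MGBA 53-1, where SEMA3A had more than in 42MGBA. With 1 pooled list per line, there is no spread by which to separate neighbours in this order.

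**Figure D2:**
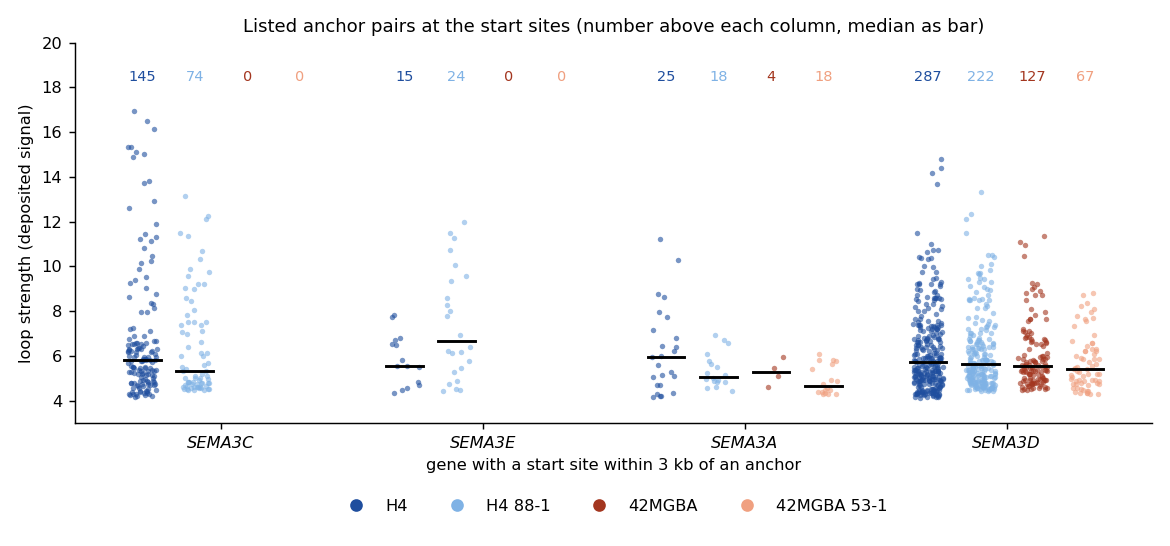
Loop strength (y axis, deposited signal) of each listed anchor pair at the start sites of the 4 genes, by cell line, with the number of pairs above each column and the median as a bar. The columns of SEMA3C and SEMA3E are empty in both 42MGBA lines, and SEMA3C in H4 reaches 17.0.

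SEMA3C, a semaphorin known for its part in heart outflow tract development and in glioma stem cells, spans chr7:80371854-80551675. Its strongest pair joined the anchor at its coding start, chr7:80541415-80546311, with chr7:81081381-81086388 between genes, 540 kb away. Its value in H4 was 17.0, that in H4 88-1 was 12.2, and it was not listed in either 42MGBA line. The z-score was -3.18. The pair of the same start with chr7:81071839-81076371 had the lowest z-score of the gene, -4.27, at 15.0 in H4 beside 8.44 in H4 88-1. Of 73 merged pairs at SEMA3C starts, 21 were called higher in H4 (28.8%, window 12.2%, background 2.17%) and none higher in H4 88-1. The median log2 ratio of the 73 was -0.44 beside -0.29 in the whole window. With chromosome 7 centred, 5 were called higher in H4 (6.85%, background 0.337%). All 21 were at the coding starts, and none at the starts of the noncoding transcripts within the gene. On its other side the same start paired with chr7:80328882-80333836, past the end of the gene, at a strength of 10.8 for H4 and 9.77 for H4 88-1.

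A larger loop enclosed SEMA3C and was the strongest of the window in both H4 lines. It joined chr7:80328882-80333836, next to the anchor that holds the motif printed above, with chr7:81086389-81091289, 757 kb apart. H4 had a strength of 29.9 there, and H4 88-1 one of 25.03 (z-score -3.49). Within 50 kb of this summit 291 pairs were listed in H4, 207 in H4 88-1 and none in the 42MGBA lines. Of the 208 merged pairs 78 were called higher in H4 (background 2.17%), which is 30.2% of such calls in the window. The 42MGBA lines had another loop in this interval, between chr7:80844959-80849664 and chr7:81057196-81062001. It had a strength of 11.3 in 42MGBA and 14.1 in 42MGBA 53-1 and was not listed in either H4 line, where the strongest pair within 50 kb reached 4.94 in H4. Of the 128 merged pairs around this loop, 18 were called higher in 42MGBA 53-1, against a background of 1.61%.

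SEMA3E, which can bind plexin D1 without a neuropilin and repels endothelial cells, spans chr7:82992554-83278455. Its loop lay within the gene, from chr7:83034808-83039650 to the anchor at its coding start, chr7:83280999-83285365, 246 kb away. H4 88-1 had a strength of 12.0 here and H4 one of 7.76 (z-score 2.28), and the pair was not listed in the 42MGBA lines. The pair of the neighbouring start anchor, chr7:83276089-83280998, went from 6.55 in H4 to 11.5 in H4 88-1 and had the largest z-score of the gene, 2.70. All 14 merged pairs at SEMA3E starts had a log2 ratio above 0, from 0.35 to 0.81, and 5 of them were called higher in H4 88-1, against the background of 1.94%. These 5 made up 45.5% of the 11 pairs of the window called in that direction. On the log2 ratio scale, and likewise at the cutoff for 0.01, 1 of the 14 was called, and with chromosome 7 centred 8 were, where the background was 9.42%. None of the 14 was called higher in H4 under these settings. The inner end of this loop lay next to the anchor with the printed SEMA3E motif, which paired with the start at 7.81 in H4 and 11.3 in H4 88-1.

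**Figure D3:**
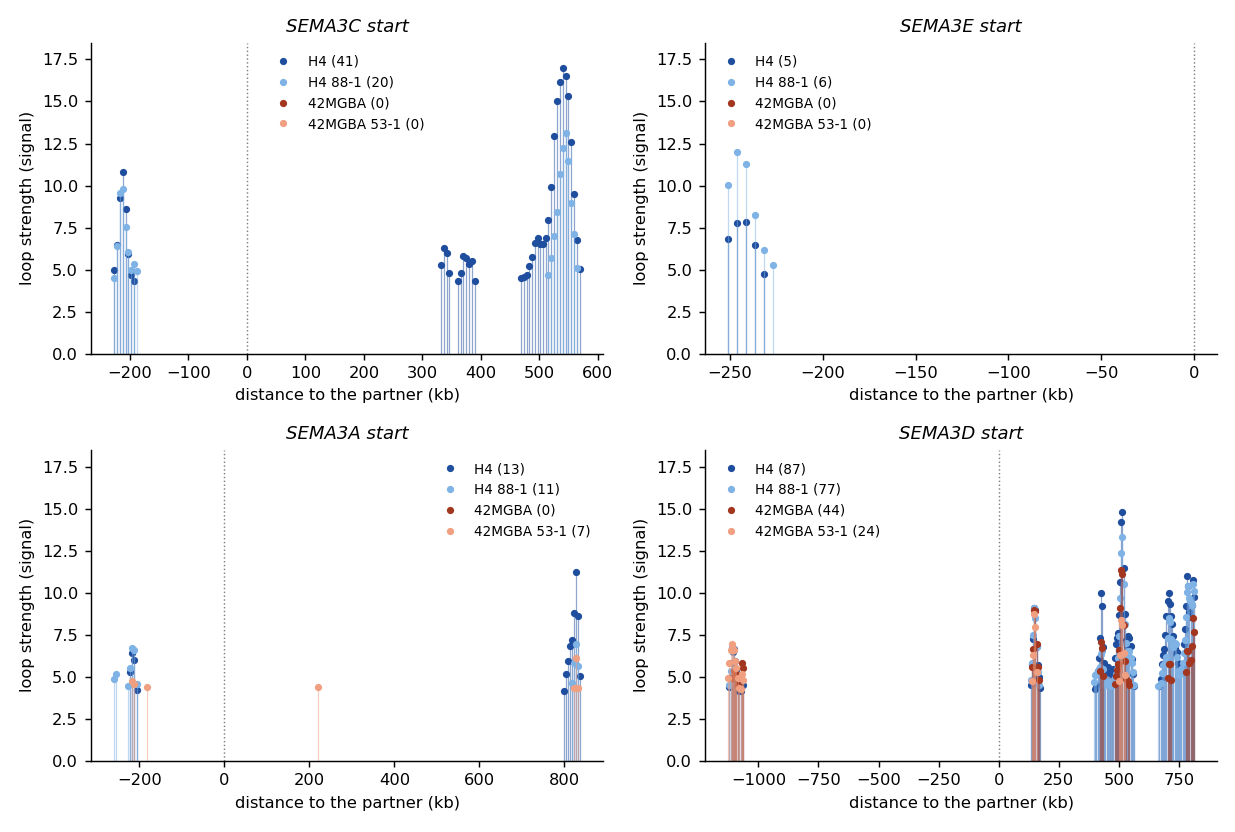
Loop strength (y axis, deposited signal) of every listed partner of a start-site anchor of each gene, against the distance to the partner in kb (x axis, negative toward lower coordinates), with the number of partners per line in brackets. SEMA3C peaks 540 kb away at 17.0 in H4, SEMA3E has partners on 1 side only, and the SEMA3D start is listed in all 4 lines.

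SEMA3A, the semaphorin known for collapsing growth cones, spans chr7:83585093-84122040. The strongest pair at its starts joined chr7:83821103-83825931, at starts that include a coding one, with chr7:84648064-84652982 in SEMA3D, 827 kb away. Its value was 11.2 in H4, 6.94 in H4 88-1 and 6.09 in 42MGBA 53-1, and it was not listed in 42MGBA. The z-score was -2.84 in the H4 system and 1.18 in the 42MGBA system, where 42MGBA was set to its lowest listed strength. Of 13 merged pairs at SEMA3A starts in the H4 system, 5 were called higher in H4 (38.5%, background 2.17%). With chromosome 7 centred 0 were (background 0.337%). None of the 2 merged in the 42MGBA system was called. The coding start at the far end of the gene, chr7:84121865-84122040, had 7 pairs in 42MGBA 53-1, 4 in 42MGBA, 1 in H4 and none in H4 88-1. Its strongest pair, from chr7:84122390-84127209 to the same SEMA3D anchor, had strengths of 5.94 in 42MGBA and 5.83 in 42MGBA 53-1. In 42MGBA the 4 pairs at this far start were all that the gene had, whereas in H4 23 of its 25 were at chr7:83824105-83824761, where 42MGBA 53-1 had 8.

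SEMA3D, a guidance cue for axons and neural crest derived cells, spans chr7:84624869-84816372. From the anchor at a start of a noncoding transcript, chr7:84667561-84672498, the strongest pair in the H4 lines reached chr7:85182725-85187651, 515 kb away between genes. In strength this pair was 14.8 in H4 and 13.3 in H4 88-1, and 11.1 in 42MGBA and 8.09 in 42MGBA 53-1. The strongest partner in 42MGBA was the anchor next to it, at 11.3, and that in 42MGBA 53-1 lay 148 kb away, at 8.73. The mutant line was higher than its derivative in each system for the pair at 515 kb, with z-scores of -1.21 and -1.29 that did not pass the cutoff. The same anchor paired with chr7:85452087-85457053 at 11.0 in H4, 10.0 in H4 88-1 and 6.53 in 42MGBA, and this pair was not listed in 42MGBA 53-1. A shorter loop joined chr7:84672499-84676833 with the coding start, chr7:84815375-84820371, 143 kb away. It had 8.48 in H4 and 8.99 in H4 88-1, against 9.20 in 42MGBA and 8.79 in 42MGBA 53-1, the closest values among the SEMA3D loops named here. Of the merged pairs at SEMA3D starts, 2 of 141 were called higher in H4 and 1 of 48 higher in 42MGBA, with none called the other way in either system. These counts are 1.42% and 2.08% of the merged pairs, near or below the backgrounds of 2.17% and 2.45%, and are no result about the gene. The median log2 ratio at the starts was -0.20 in the H4 system and -0.46 in the 42MGBA system, where the window as a whole stood at 0.27.

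The 5 pairs of the window called higher in 42MGBA all belonged to a loop from within SEMA3D, chr7:84657795-84662642, to chr7:85476272-85481134, 818 kb away. This pair had 13.3 in H4, 8.99 in H4 88-1 and 9.18 in 42MGBA and was not listed in 42MGBA 53-1. The z-scores were -2.87 in the H4 system and -2.61 in the 42MGBA system. The pair was thus called higher in the mutant line in both systems, which held for 2 of the 688 pairs merged in both (0.291%). Over the genome that share was 0.250%, so this count is near the background and is no result about the loop. No pair around this loop was listed in 42MGBA 53-1, so all 5 calls rest on the lowest strength of that list, 4.28.

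SEMA3A and SEMA3D were the only 2 of the 4 genes joined to each other by pairs with an anchor in each gene. There were 309 such pairs, with 266 in the list of H4 and 157 in that of H4 88-1, and 124 in 42MGBA and 201 in 42MGBA 53-1. The strongest in each line shared the anchor chr7:84648064-84652982 within SEMA3D, called the SEMA3D inner anchor here. This anchor had 127 partners in H4 and 80 in H4 88-1, beside 39 in 42MGBA and 99 in 42MGBA 53-1. In 42MGBA 53-1 all 99 lay on the SEMA3A side, while 36 of those in H4, 7 in H4 88-1 and 5 in 42MGBA lay on the other side.

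The pair with the largest z-score of the 42MGBA system over the whole genome joined this anchor with chr7:83556599-83561604, past the end of SEMA3A, 1091 kb away. This pair had a strength of 10.9 in 42MGBA and 19.6 in 42MGBA 53-1 (z-score 6.09) and a log2 ratio of 0.85, and is called the lead pair here. In the H4 lines it was 19.0 in H4 and 22.5 in H4 88-1 (z-score 1.65). 42MGBA was thus the line that stood apart, and the other 3 lay between 19.0 and 22.5. In the adjacent anchor, chr7:83561605-83566516, which holds the first 2 printed motifs, the strengths were 22.0 in H4 and 23.1 in H4 88-1, beside 12.4 in 42MGBA and 19.9 in 42MGBA 53-1.

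Moving along SEMA3A while keeping the SEMA3D inner anchor fixed, the strengths had 2 summits. The first lay past the gene end, beside the lead pair, and the other 43.6 kb from the lead pair, at chr7:83600251-83605127 in an intron near the end of SEMA3A. There the strengths were 19.8 in H4 and 17.4 in H4 88-1, and 20.2 in 42MGBA and 19.2 in 42MGBA 53-1, and the ratio of 42MGBA 53-1 to 42MGBA was 0.949. At the lead pair that ratio was 1.80, and 10.0 kb further from the gene it was 2.16, from 6.65 to 14.4. The difference between the 42MGBA lines was thus seen at the summit past the gene end and not at that within the gene, which ended on the same SEMA3D anchor. No match to the CTCF core motif was found in the anchor of the second summit, nor in that of the lead pair, which adjoins the anchor with the first 2 printed motifs.

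**Figure D4:**
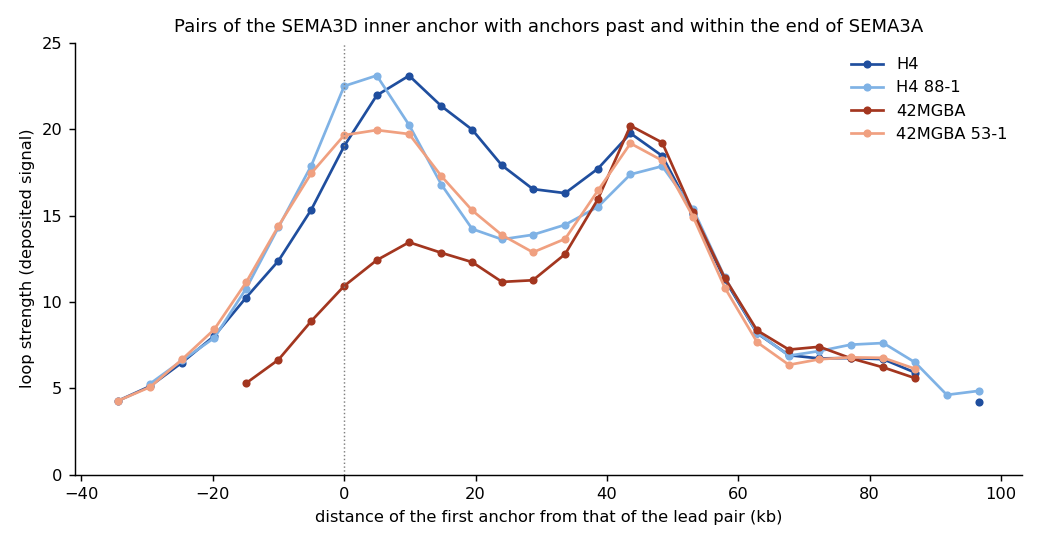
Loop strength (y axis, deposited signal) of the pairs of the SEMA3D inner anchor with successive anchors past and within the end of SEMA3A, against their distance in kb from the anchor of the lead pair (x axis), 1 line per cell line. At 0 kb 42MGBA lies at 10.9 and the other lines between 19.0 and 22.5, whereas at 43.6 kb all 4 lie between 17.4 and 20.2.

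The H4 lines differed along this profile by position. At 5.01 kb before the lead pair H4 88-1 had 17.9 beside 15.3 in H4, with a z-score of 1.16 that did not pass the cutoff. Further out, at 19.8 kb before the lead pair, H4 had 8.03 and H4 88-1 7.92. Within the valley between the summits H4 88-1 was lower, with 14.2 beside 19.97 at 19.49 kb after the lead pair and a z-score of -3.83. Over the 142 merged pairs within 50 kb of the lead pair, 3 were called higher in H4 88-1 (background 1.94%) and 18 higher in H4 (background 2.17%). In the 42MGBA system 47 of 130 were called higher in 42MGBA 53-1 (background 1.61%) and none higher in 42MGBA (background 2.45%). These 47 are 34.8% of the calls of the window in that direction, and without them 88 remained.

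Of the 688 pairs of the window merged in both, 6 were called higher in both corrected lines, 2 higher in both mutant lines, 16 higher in H4 and in 42MGBA 53-1, and none higher in H4 88-1 and in 42MGBA. Over the 68322 pairs of the genome merged in both, the same 4 counts were 81, 171, 40 and 106. As shares these were 0.872%, 0.291%, 2.33% and 0% in the window, beside 0.119%, 0.250%, 0.0585% and 0.155% over the genome. Of those called higher in both corrected lines, the one with the largest z-scores joined chr7:83556599-83561604 with chr7:84652983-84657794 in SEMA3D. Here the values were 16.8 in H4 and 22.0 in H4 88-1, against 11.1 in 42MGBA and 18.4 in 42MGBA 53-1, with z-scores of 2.72 and 5.20. Nearby, chr7:83566517-83571456 with the SEMA3D inner anchor was called in opposite directions, with 23.1 in H4 and 20.2 in H4 88-1, beside 13.5 in 42MGBA and 19.7 in 42MGBA 53-1. By sign alone, 311 of the 688 pairs were lower in H4 88-1 and higher in 42MGBA 53-1 than in their parental lines, and 35 the reverse. Another 201 were lower in both corrected lines and 141 higher in both. These signs were not counted over the genome.

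**Figure D5:**
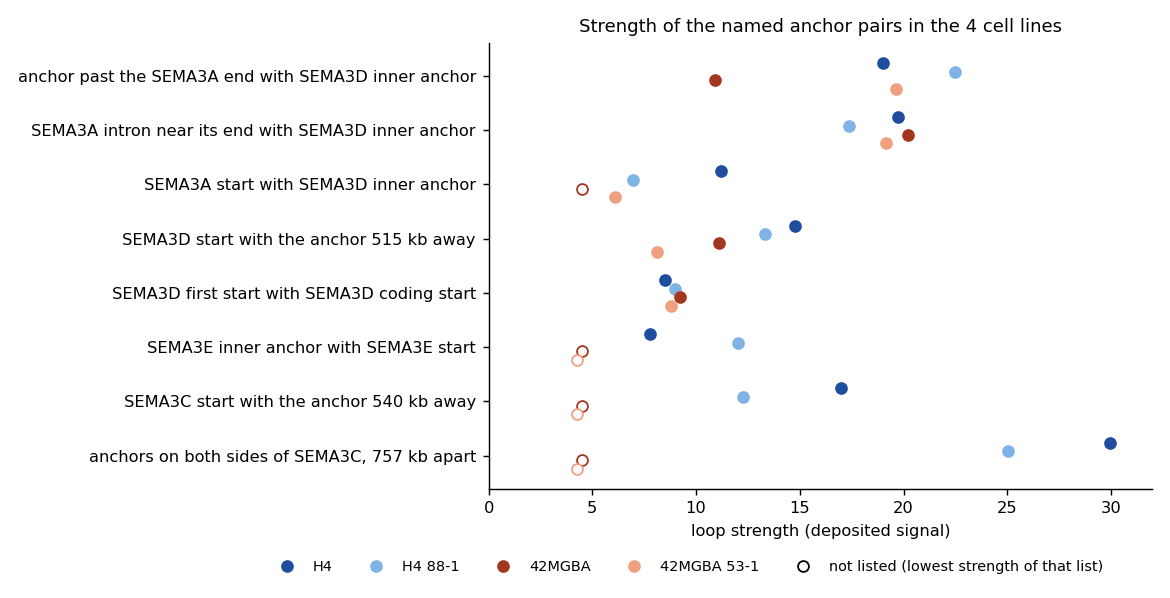
Loop strength (x axis, deposited signal) of 8 anchor pairs named in the text, 1 point per cell line, with open points at the lowest strength of the list where a pair was not listed. The pair past the SEMA3A end is low in 42MGBA at 10.9, and the pair on both sides of SEMA3C, 757 kb apart, is listed in the H4 lines alone, at 29.9 and 25.03.

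Of the 5 other protein-coding genes of the window, CACNA2D1, a calcium channel subunit, had the strongest pairs at its starts, with maxima of 27.7 in H4 and 22.6 in H4 88-1, and 21.6 in 42MGBA and 20.5 in 42MGBA 53-1. All of its pairs lay at starts of noncoding transcripts, and its coding starts had none in any line. Of its merged pairs 33 of 149 were called higher in 42MGBA 53-1, where the share was 14.0% in the window and 1.61% over the genome. In the H4 system 9 of its 207 merged pairs were called higher in H4 (background 2.17%) and 3 higher in H4 88-1 (background 1.94%). CD36, a fatty acid receptor beside SEMA3C, had 353 pairs in H4 and 192 in H4 88-1, against 26 in 42MGBA and 31 in 42MGBA 53-1. Of its 174 merged pairs 28 were called higher in H4, where the share was 12.2% in the window and 2.17% over the genome. HGF, the ligand of the MET receptor, had 31, 24, 12 and 16 pairs in the same order of lines, PCLO had 2 in H4 alone, and GNAT3 had none. The sparse listing in the 42MGBA lines was thus shared by SEMA3C and its neighbour CD36.

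The other genes of the semaphorin pathway were taken from a list of 15, with the remaining class 3 ligands SEMA3B, SEMA3F and SEMA3G, the neuropilins, the plexins and the L1 family adhesion molecules. Of these, 12 had a listed pair at a start site. In the H4 system 9 of their 104 merged pairs were called higher in H4 88-1 and none higher in H4, where the background was 1.94% and 2.17%. They lay at 2 receptor genes, with 4 at PLXNA1, a coreceptor that signals for SEMA3A, and 5 at PLXNC1, a receptor of another semaphorin class. Neighbouring pairs at a gene are not separate observations. Counted by gene, 2 of the 9 with a merged pair had such a call, beside 455 of 4761 genes (9.56%) over the genome. With so few genes this is no result about the list. PLXNA1 reached 9.73 in H4 88-1 and 5.98 in 42MGBA 53-1 and was not listed in either mutant line. Its 4 calls thus rest on the lowest listed strength of H4. In the 42MGBA system 1 of 66 merged pairs was called higher in 42MGBA 53-1, at NRP1, a neuropilin, and 1 higher in 42MGBA, at PLXNC1, where the backgrounds were 1.61% and 2.45%, so that these counts are no result about the list. The plexin PLXNA4 was listed in the H4 lines only, with 3 pairs in H4 and 14 in H4 88-1. NRCAM and CHL1, adhesion molecules that act with neuropilins, were likewise absent from the 42MGBA lines. NRCAM had 91 pairs in H4 and 60 in H4 88-1, and CHL1 had 70 in H4 and none in H4 88-1. Genes with such a listing were not counted over the genome.

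As a description of pattern, the mean log2 strength at a gene's start sites, centred over the 4 lines, was compared between genes with 5 or more pairs, with a pair that is not listed set to the lowest strength of that list. For SEMA3C and SEMA3E both 42MGBA values are this constant alone, so their likeness to other genes rests in part on shared absence. The genes nearest to SEMA3C were CD36, S1PR1 and PCDHA11, at distances of 0.050, 0.055 and 0.060. For SEMA3E they were TRPM5, FIGNL1 and ENSG00000284779 at 0.071, 0.073 and 0.092, for SEMA3A CD300A, ALG10B and EPHA1 at 0.014, 0.019 and 0.022, and for SEMA3D SEC16B, S100A11 and KLHL31 at 0.028, 0.029 and 0.030. CD36 shares anchors with the SEMA3C region, and each pattern rests on 4 values.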

How the data were processed

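Hi-C was performed on 8 libraries with 2 replicates per cell line. Per the methods and labels, the authors aligned trimmed reads to hg19 using Bowtie, removed duplicates, assigned read pairs to 5 kb anchor pairs, corrected biases with HiCorr and enhanced them with LoopEnhance of DeepLoop. The deposited signal is the loop strength of the 300000 strongest anchor pairs per cell line, with replicates pooled. The deposited lists also give the distance in bases between the anchors, which was not used, since sizes were computed between midpoints. The depth behind a pair is unknown, so no counting error was computed. The smoothing of neighbouring anchors by the enhancement means that adjacent pairs share signal.

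For each system the 100000 strongest pairs of both lines were merged, absent pairs were given the lowest listed strength, and the strength in the corrected line was regressed through the origin on that in the mutant line. Centred z-scores of the residuals were called past 1.96 (two-sided 0.05). A check on simulated data planted shifts well past the cutoff in independent noise, so their recovery was fixed in advance. It says nothing about unlisted pairs or about neighbours that share signal. Named pairs were the strongest and the most extreme pair per gene, the lead pair, whose z-score was the largest of the 42MGBA system, with pairs whose anchors lay within 50 kb of it, pairs between genes of the cluster, and pairs called in both systems. Partners and summits along fixed anchors and CTCF motifs were chosen after values were seen. The members, the window and all lists were chosen with earlier results of these data known. Genes and transcript starts came from GENCODE release 44 on hg19, and sequences from the same genome build. Alternatives changed the regression, scale, number of pairs merged, absent pairs, cutoff, size and start-site distance. The STAG2 genotype cannot be checked in lists of loops, and the 12 RNA-seq samples were not analysed here. Python 3.11.15, numpy 2.4.6, pandas 2.3.3, scipy 1.17.1, pysam 0.24.0 and matplotlib 3.10.9 were used.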

Additional observations from a re-analysis of the deposited data

Results flagged for a closer look

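The median log2 ratio of corrected to mutant strength over the merged pairs of the window had opposite signs in the systems, -0.29 in the H4 system and 0.27 in the 42MGBA system. In addition, 16 pairs were called higher in H4 than in H4 88-1 and higher in 42MGBA 53-1 than in 42MGBA. The difference between the systems was not tested, because each cell line has 1 pooled list. Chromosome 7 filled 11.2% of the H4 list and 8.80% of the H4 88-1 list, and 6.66% of the 42MGBA list and 7.02% of the 42MGBA 53-1 list. The part of these shares in the result was not tested.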

How the results depend on the processing

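In each setting tried, more pairs of the window were called higher in H4 than in H4 88-1, and more higher in 42MGBA 53-1 than in 42MGBA, while the counts moved. The main counts were 11 higher in H4 88-1 against 258 in H4, and 135 higher in 42MGBA 53-1 against 5 in 42MGBA. In the same order, counts beyond 1.5 times the main ones were 18, 498, 244 and 18 when the 200000 strongest pairs were merged. The window then held 3492 merged pairs in the H4 system and 1625 in the 42MGBA system, and backgrounds were 2.43%, 2.60%, 2.02% and 2.94%. Merging all listed pairs gave 23, 769, 350 and 50, of 4600 and 2205 merged pairs (backgrounds 2.98%, 3.11%, 2.55% and 3.46%). More pairs were tested in both of these settings. The log2 ratio gave 1, 155, 66 and 12 (backgrounds 2.01%, 1.86%, 1.51% and 2.25%). A cutoff for 0.01 gave 2, 116, 51 and 1 (backgrounds 0.470%, 0.629%, 0.383% and 0.768%). Centring the log2 ratio on chromosome 7 gave 33 in H4 (background 0.337%), 43 in 42MGBA 53-1 (background 0.848%) and 14 in 42MGBA (background 3.42%). An intercept gave 21 in H4 88-1 (background 2.88%) and 123 in H4 (background 1.35%). Ranking among pairs of similar size gave 17 in H4 88-1 (background 2.20%) and 2 in 42MGBA (background 2.53%). Leaving out absent pairs gave 2 in 42MGBA (background 2.76%). These 2 cannot be among the main 5, since those were absent in 42MGBA 53-1. Leaving out the pairs around the lead pair, added after seeing the data, gave 88 in 42MGBA 53-1. Beyond the larger number of pairs merged and the stricter cutoff, the cause was not tested. The z-score of the lead pair was past the cutoff in the 42MGBA system in all 8 alternatives, from 2.53 to 9.13. In the H4 system it passed with 3.98 with an intercept, 1.99 and 2.32 with more pairs merged and 2.64 by size. The median log2 ratio of the window ran from -0.26 to -0.14 in the H4 system and from 0.085 to 0.26 in the 42MGBA system when the pairs merged were changed. With start sites of coding transcripts only, chosen after seeing the data, the pairs of SEMA3D were 33 in H4 and 29 in H4 88-1, beside 26 in 42MGBA and 15 in 42MGBA 53-1. SEMA3C and SEMA3E had 0 pairs in the 42MGBA lines at 1, 3 and 10 kb. No paired analysis was possible because the replicates of a cell line are pooled in 1 list, and for the same reason no replicate could be left out.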
